A study of Mus musculus with 14 samples.

Results

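The genes described here are the 35 that carry long-chain fatty acids from uptake to electron transfer in mitochondria: acyl-CoA synthetases and transport proteins, fatty acid binding proteins, the carnitine system, the acyl-CoA dehydrogenases, the enzymes of the later steps of beta-oxidation, and the electron transfer flavoprotein. They were taken by gene symbol from the table of counts, which holds 55471 genes, and all 35 were found. The low-count filter kept 34 of them among 15949 tested genes. Acsl6, an acyl-CoA synthetase known mainly from brain, had 8 counts in all libraries together and was not tested.

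RNA was sequenced from brown adipose tissue (BAT), the fat depot that burns lipid to make heat, of 10-week-old male mice. The knockout, AdC3KO, lacks CLSTN3B in adipocytes only and was compared with wild type (WT). The sources used here name neither the promoter that drives the deletion nor the strain, and other cells of the depot keep the gene. The groups were AdC3KO at 4 °C and WT at 4 °C, with 4 libraries each, and AdC3KO at 30 °C and WT at 30 °C, with 3 libraries each. All mice had first spent 2 weeks at thermoneutrality (30 °C), and the cold groups then spent 6 h at 4 °C. Whether each of the 14 libraries is a separate animal is not stated, so the p-values reflect scatter among libraries that may be technical.

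A long-chain fatty acid is activated to its acyl-CoA on the outer membrane of the mitochondrion or at the endoplasmic reticulum. It enters the matrix as an acylcarnitine: carnitine palmitoyltransferase 1 makes the ester, the carrier SLC25A20 moves it across the inner membrane and carnitine palmitoyltransferase 2 restores the acyl-CoA. Each turn of beta-oxidation then runs through dehydrogenation, hydration, a further dehydrogenation and thiolysis, and electrons of the first step reach ubiquinone through the electron transfer flavoprotein and its dehydrogenase. In BAT this pathway supplies the reducing power that uncoupled respiration turns into heat.

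The sequences shown lie around the starts of members, some called in cold and some not. A link between these sequences and the changes was not tested. Hadha and Hadhb, the subunits of the mitochondrial trifunctional protein, lie head to head on chromosome 5, and the stretch between their GENCODE starts is shown because both genes were called higher in cold, Hadha by more than Hadhb. It covers chr5:30155163-30155247 (GRCm38.p6, plus strand, from RefSeq), and capitals mark its 9 CpG dinucleotides.
Hadha and Hadhb, between their starts: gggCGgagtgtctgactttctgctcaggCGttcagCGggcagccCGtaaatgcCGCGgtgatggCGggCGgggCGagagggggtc
The stretch is 85 bases long with 69.4% G and C. Hadha is transcribed to its left and Hadhb to its right. The length depends on the annotation, as the RefSeq starts of Hadha and Hadhb have 272 bases between them.

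RefSeq windows of 300 bases (250 before to 50 after each start, GRCm38.p6) were found for 29 members, 34 windows in all, and were searched on both strands. A pair of AGGTCA half-sites 1 base apart, the direct repeat bound by PPAR and RXR receptors, was found with up to 2 mismatches in 3 of the 34 windows, against 3.86% of 32851 windows. AAGGTCA, the site of oestrogen-related receptors, which overlaps that half-site, was found in 3 of the 34, against 4.72%. TGACGTCA, the cAMP response element, was in 0 of the 34, against 1.79%. The mismatches allowed were chosen after a stricter search had been seen. Sites in tested members are shown as 30 bases in the direction of the gene, with the match in capitals.
Slc25a20, chr9:108662134-108662163, plus strand: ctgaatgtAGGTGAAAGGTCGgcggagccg
Etfa, chr9:55512299-55512328, minus strand: gcacacccTTACCTTTGCCCTactcccaag
Echs1, chr7:140116483-140116512, minus strand: gcccgctcAGGTCACGGGTCCaccccttaa
Slc27a2, chr2:126552793-126552822, plus strand: caccacgccttTGACCTTttcaacgtgggc
Acadm, chr3:153944864-153944893, minus strand: gTGACCTTcgggctccggtgacactgggca
The first 3 hold the spaced repeat and the last 2 the shorter site. As given below, Slc25a20 and Slc27a2 rose in cold in both genotypes, Etfa in AdC3KO, and Echs1 and Acadm were not called in either. A match is a description of letters, and occupancy of these sites was not measured.

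The label of the knockout was checked first. Clstn3, the locus that encodes CLSTN3B and full-length calsyntenin-3 under a single gene identifier, had 53.8, 73.9, 77.9 and 57.6 CPM (counts scaled to library size with TMM factors) in AdC3KO at 4 °C, against 1195, 1125, 1148 and 970.0 CPM in WT at 4 °C. At 30 °C it had 17.3, 14.8 and 15.3 CPM in AdC3KO, against 182, 210.3 and 228 CPM in WT. Every AdC3KO library lay below every WT library of its temperature. Gene counts per library ran between 19932180 and 29026445. The 6 brown adipocyte markers were detected in every group and summed to 14906 to 19789 CPM in AdC3KO at 4 °C, 14141 to 18235 in WT at 4 °C, 5190.3 to 6662 in AdC3KO at 30 °C and 5403 to 6267 in WT at 30 °C. Gene by gene, in cold 1 of the 6 was called higher and 2 lower in AdC3KO (median log2 fold change −0.34), and 1 higher and 4 lower in WT (median −0.42).

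Markers of other cell types were also called between temperatures, in both directions. Of all tested genes, 31.0% were higher and 32.1% lower at 4 °C in AdC3KO, and 30.6% and 30.8% in WT. Transcripts of skeletal muscle, which borders this depot, stood out in 5 libraries, namely AdC3KO 4 °C number 3, WT 4 °C number 2, AdC3KO 30 °C numbers 1 and 2, and WT 30 °C number 3. The summed level of 14 muscle markers ranged over 44.7 to 572 CPM in AdC3KO at 4 °C, 46.6 to 99.9 in WT at 4 °C, 85.7 to 146 in AdC3KO at 30 °C and 78.5 to 289.5 in WT at 30 °C, with Tnnc2 at 0 in every group but the last. Of 7 endothelial markers, 4 were higher and 2 lower at 4 °C in AdC3KO, and 4 higher and 3 lower in WT. Of 8 macrophage markers 3 were higher in AdC3KO and 5 in WT, of 5 red blood cell markers 5 and 4, and of 4 Schwann cell markers 3 and 4 were lower. Of 5 fibroblast markers, 0 were called in AdC3KO and 1 was higher in WT. The summed level of 4 white adipocyte markers was 33.5 to 78.6 CPM in AdC3KO at 4 °C, 57.9 to 112 in WT at 4 °C, 167 to 229 in AdC3KO at 30 °C and 157 to 261 in WT at 30 °C, with 2 called lower in cold in AdC3KO and 1 in WT. Their part in the results below was not tested. In bulk tissue, fewer cells of a type and less RNA per cell cannot be told apart.

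No member was called between the genotypes at either temperature. At 4 °C, 0 of the 34 tested members passed the quasi-likelihood test of edgeR at an adjusted p below 0.05 (called), against 0.0502% of all tested genes, and at 30 °C 0 passed, against 0.0439%. The interaction (cold log2 fold change in AdC3KO less that in WT) called 0 members, against 0% of all tested genes. At an unadjusted p below 0.05, 1 member passed at 4 °C, 0 at 30 °C and 0 in the interaction. Of all 15949 tested genes, 765, 212 and 349 did. DESeq2 also called 0 members in each.

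The log2 fold changes of AdC3KO over WT ranged from −0.36 to 0.35 at 4 °C, with a median of 0.04, and from −0.17 to 0.22 at 30 °C, with a median of 0.02. The medians over all tested genes were −0.01 and 0.01. At neither temperature did any member have all AdC3KO libraries on one side of all WT libraries. Of all 15949 tested genes, 362 did at 4 °C and 1163 at 30 °C. The member with an unadjusted p below 0.05 was Fabp5, a fatty acid binding protein shared with skin and macrophages, with a mean level at 4 °C of 41.8 ± 7.06 CPM in the AdC3KO libraries, against 50.1 ± 1.60 CPM in the WT libraries (SD, n = 4 each). Its log2 fold change was −0.26 (SE 0.11, edgeR adjusted p = 0.963), and its groups overlapped.

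Both ends of the range at 4 °C were set by members that varied widely between libraries. Slc27a1, a fatty acid transport protein with acyl-CoA synthetase activity, had a mean of 114 ± 32.2 CPM in the AdC3KO libraries, against 146 ± 40.4 CPM in the WT libraries (SD, n = 4 each), a log2 fold change of −0.36 (SE 0.22). Etfb, the beta subunit of the electron transfer flavoprotein, had a mean of 31.0 ± 8.59 CPM in the AdC3KO libraries, against 24.4 ± 8.63 CPM in the WT libraries (SD, n = 4 each), a log2 fold change of 0.35 (SE 0.32). Acsl1 had the most negative interaction, −0.46 (SE 0.27), with cold log2 fold changes of 1.81 in AdC3KO and 2.26 in WT. Misses of the threshold with these errors do not show that the genotypes are alike. The smallest and largest SE among members were 0.09 and 0.32 at 4 °C.

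**Figure D1:**
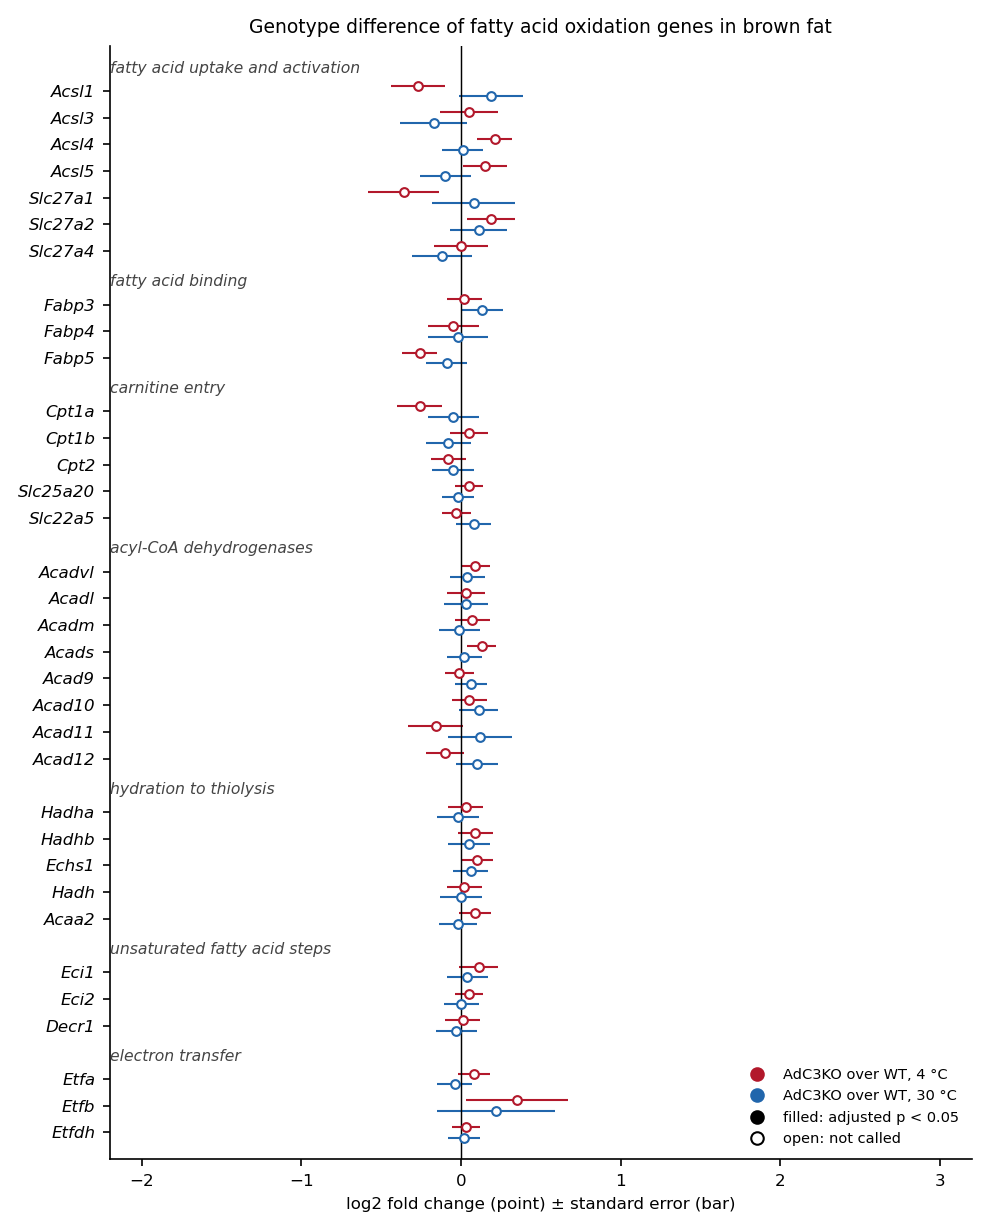
Log2 fold change of AdC3KO over WT (horizontal axis) for the 34 tested members grouped by step, at 4 °C (red) and 30 °C (blue); points are fitted values and bars are standard errors, and no point is filled because none was called. All points lie between −0.36 and 0.35.

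Cold moved the pathway unevenly. In AdC3KO 16 of the 34 tested members were higher at 4 °C than at 30 °C and 5 were lower, where 31.0% of all tested genes were higher and 32.1% lower. In WT 16 were higher and 4 lower, where 30.6% and 30.8% of all tested genes were. The 4 °C and 30 °C libraries did not overlap for 20 members in AdC3KO and 18 in WT, against 64.1% and 60.3% of all tested genes. Among members, the share called higher was thus above that of all genes, and the share called lower was below it. The share free of overlap was near that of all genes, slightly below it in both genotypes. The median log2 fold change of members was 0.24 in AdC3KO and 0.21 in WT, beside −0.06 and −0.03 over all tested genes.

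The AdC3KO and WT cold comparisons share no library. Of the 34 members, 15 were called higher in both, 3 lower in both and 0 in opposite directions, while 11 were called in neither. Over all 15949 tested genes 4443 were higher in both, 4413 lower in both, 0 opposite and 4968 called in neither, so the last 2 counts of members are near those of the table. Acsl5 (lower) and Fabp5 (higher) were called in WT only, and Slc27a1, Cpt1a (both lower) and Etfa (higher) in AdC3KO only, but the interaction called none of these, so the genotypes were not shown to differ in them.

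The balance of higher and lower calls depended on scaling. TMM factors were 0.822 to 0.954 in the 8 libraries at 4 °C and 1.11 to 1.21 in the 6 at 30 °C. Upper-quartile factors shifted the median of all tested genes to −0.29 in AdC3KO and −0.27 in WT. Members were then 12 higher and 11 lower in AdC3KO (52.2% of calls higher, against 76.2% with TMM) and 10 higher and 12 lower in WT (45.5%, against 80.0%). Of the calls over all genes, 36.4% in AdC3KO and 36.2% in WT were then higher, against 49.1% and 49.9% with TMM. With no low-count filter the split was 14 higher and 7 lower in AdC3KO (66.7% higher) and 14 and 6 in WT (70.0%), where 42.8% and 44.0% of the calls over all genes were higher.

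A set of 10 members kept its call in both genotypes under every scaling, filter, tool, block and left-out library that was tried. How many of all tested genes did so was not counted, so this is not shown to be particular to the members. The 8 higher ones were Acsl1, Acsl4, Slc27a2, Fabp3, Cpt1b, Slc25a20, Slc22a5 and Etfdh, and the 2 lower ones were Acad10 and Acad12. Settings that add or end a call for the other members are given with each of them.

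**Figure D2:**
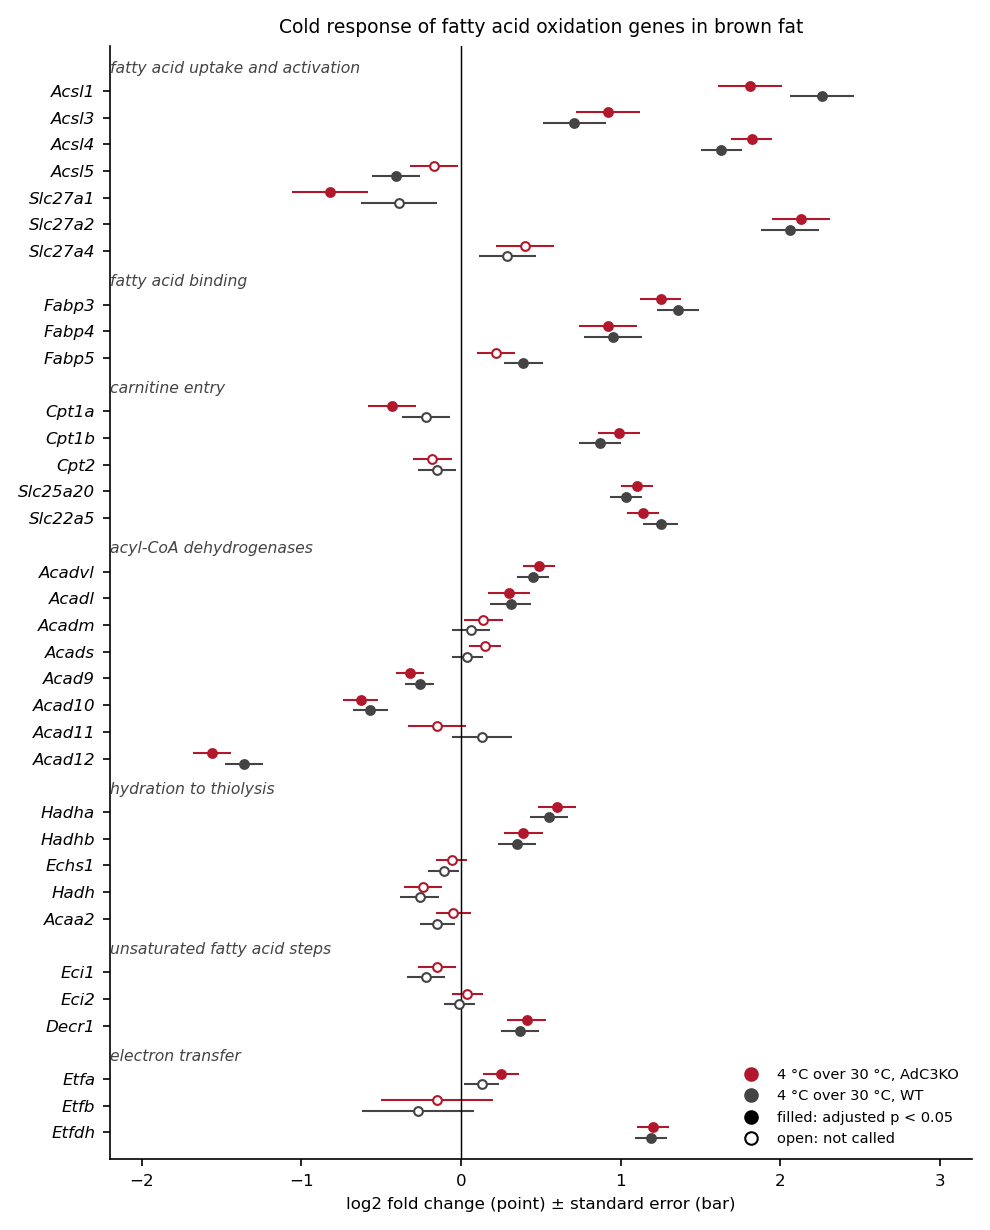
Log2 fold change of 4 °C over 30 °C (horizontal axis) for the 34 tested members grouped by step, in AdC3KO (red) and WT (grey); points are fitted values with TMM scaling, bars are standard errors, and filled points have an adjusted p below 0.05. Activation, binding and carnitine entry hold most of the large rises, Etfdh stands out at electron transfer with 1.20 in AdC3KO and 1.19 in WT, and Acad12 is the lowest point with −1.56 and −1.36.

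Uptake and activation held the largest rises. Of the 7 tested members of this step, 4 were higher and 1 lower at 4 °C in AdC3KO, and 4 higher and 1 lower in WT. For this and the later steps, the shares of all tested genes were 31.0% higher and 32.1% lower in AdC3KO, and 30.6% and 30.8% in WT. Acsl1 (chromosome 8, 46471037 to 46536051, GRCm38, plus strand) is the main long-chain acyl-CoA synthetase of adipocytes. It had 5072, 6058, 6213 and 4658 CPM in AdC3KO at 4 °C, against 1629.9, 1623 and 1460.4 CPM in AdC3KO at 30 °C. WT libraries had 9254, 5354, 6748 and 5152 CPM at 4 °C, against 1218, 1223 and 1698 CPM at 30 °C. All cold libraries lay above all warm ones, and WT 4 °C number 1 was the highest of all. The log2 fold change was 1.81 in AdC3KO (SE 0.20, edgeR adjusted p = 8.75e-07) and 2.26 in WT (SE 0.20, adjusted p = 9.13e-08).

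Slc27a2 (chromosome 2, 126552407 to 126588243, plus strand) encodes a fatty acid transport protein that also acts as a very long-chain acyl-CoA synthetase. It had 642, 754, 887 and 659.6 CPM in AdC3KO at 4 °C, against 185, 178 and 139 CPM in AdC3KO at 30 °C. Counts in WT came to 654, 624, 652 and 653 CPM at 4 °C, against 130.5, 124 and 210.5 CPM at 30 °C. The temperatures did not overlap in either genotype. Cold raised it by 2.13 on the log2 scale in AdC3KO (SE 0.18, adjusted p = 4.51e-08) and 2.06 in WT (SE 0.18, adjusted p = 6.88e-08).

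Acsl4 (chromosome X, 142317993 to 142390535, minus strand), a synthetase that prefers arachidonate, was far less abundant. It had 80.1, 96.8, 69.7 and 72.5 CPM in AdC3KO at 4 °C, against 23.1, 21.7 and 22.7 CPM in AdC3KO at 30 °C. The WT values were 63.3, 74.8, 78.5 and 59.4 CPM at 4 °C, against 21.6, 21.1 and 24.2 CPM at 30 °C. Warm libraries of both genotypes sat within a narrow band below every cold library. The log2 fold change was 1.82 in AdC3KO (SE 0.13, adjusted p = 4.63e-09) and 1.63 in WT (SE 0.13, adjusted p = 1.61e-08).

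Acsl3, a synthetase of the endoplasmic reticulum and lipid droplets, rose by 0.92 in AdC3KO and 0.71 in WT on the log2 scale, a call lost in WT with upper-quartile factors (0.46, adjusted p = 0.0510) and in both genotypes without the 5 libraries with muscle transcripts (0.58 and 0.68). Acsl5, a synthetase of mitochondria and endoplasmic reticulum, changed by −0.17 in AdC3KO (called only with upper-quartile factors, −0.40) and −0.41 in WT, where leaving out WT 4 °C number 1, WT 30 °C number 1 or WT 30 °C number 2 ended the call (−0.33, −0.40 and −0.30). Slc27a1 changed by −0.82 in AdC3KO, called except without the libraries with muscle transcripts (−0.68), and by −0.39 in WT, called only with upper-quartile factors (−0.63) or without WT 4 °C number 1 (−0.61). Slc27a4, another transport protein, changed by 0.40 in AdC3KO and 0.29 in WT, called in neither. It was called higher in AdC3KO by DESeq2 (0.42), when only its 2 groups were fitted (0.39) and without AdC3KO 4 °C number 3 (0.53), and in WT without WT 4 °C number 1 (0.42).

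Among the 5 Acsl genes, Acsl1 made up nearly all transcripts per length. Its share was 97.4 ± 0.409% in AdC3KO and 98.0 ± 0.619% in WT at 4 °C (SD, n = 4 each), and 94.3 ± 1.28% in AdC3KO and 93.1 ± 1.73% in WT at 30 °C (SD, n = 3 each). Per length, Acsl1 was 102 ± 20.7 times Acsl5 in AdC3KO and 142 ± 66.9 times in WT at 4 °C, beside 26.5 ± 6.35 and 21.8 ± 8.07 times at 30 °C. Such ratios within a library do not depend on the scaling of libraries. The pairs of genes for ratios were picked after their values had been seen and carry no test.

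The fatty acid binding proteins hold fatty acids in the cytosol. Fabp4 (chromosome 3, 10204088 to 10208576, minus strand), the adipocyte form, was the most abundant member per length. It had 8751, 9929, 12447 and 9506 CPM in AdC3KO at 4 °C, against 4473, 5404 and 6283 CPM in AdC3KO at 30 °C. In WT the levels were 14202, 9846, 9488 and 8571 CPM at 4 °C, against 5072, 6007 and 5256 CPM at 30 °C. No cold library reached down to a warm one, and the log2 fold change was 0.92 in AdC3KO (SE 0.18, adjusted p = 3.63e-04) and 0.95 in WT (SE 0.18, adjusted p = 2.70e-04). The AdC3KO call was lost, at 0.58, without the 5 libraries with muscle transcripts, a setting that leaves AdC3KO at 30 °C with 1 library.

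Fabp3 (chromosome 4, 130308595 to 130315463, plus strand), the heart and muscle form that is also present in brown fat, changed more. It had 1498, 1611, 1579 and 1452 CPM in AdC3KO at 4 °C, against 596, 565 and 781 CPM in AdC3KO at 30 °C. WT libraries carried 1716, 1293, 1507 and 1543 CPM at 4 °C, against 607, 635 and 529 CPM at 30 °C. The temperatures were clear of each other, with log2 fold changes of 1.25 in AdC3KO (SE 0.13, adjusted p = 4.00e-07) and 1.36 in WT (SE 0.13, adjusted p = 1.69e-07). AdC3KO 4 °C number 3, the library with the most muscle transcripts, was not the highest of its group, and without the 5 libraries with muscle transcripts the values were 0.96 and 1.35.

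Per length, Fabp3 was 14.2 ± 1.54% of the summed 3 binding proteins in AdC3KO and 13.8 ± 2.14% in WT at 4 °C (SD, n = 4 each), and 11.5 ± 1.25% in AdC3KO and 10.5 ± 0.848% in WT at 30 °C (SD, n = 3 each). Fabp5 changed by 0.22 in AdC3KO (called only without AdC3KO 4 °C number 3, 0.31) and 0.39 in WT. The WT call was lost with upper-quartile factors (0.15), without WT 30 °C number 3 (0.31) and on leaving out all libraries with muscle transcripts (0.30).

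**Figure D3:**
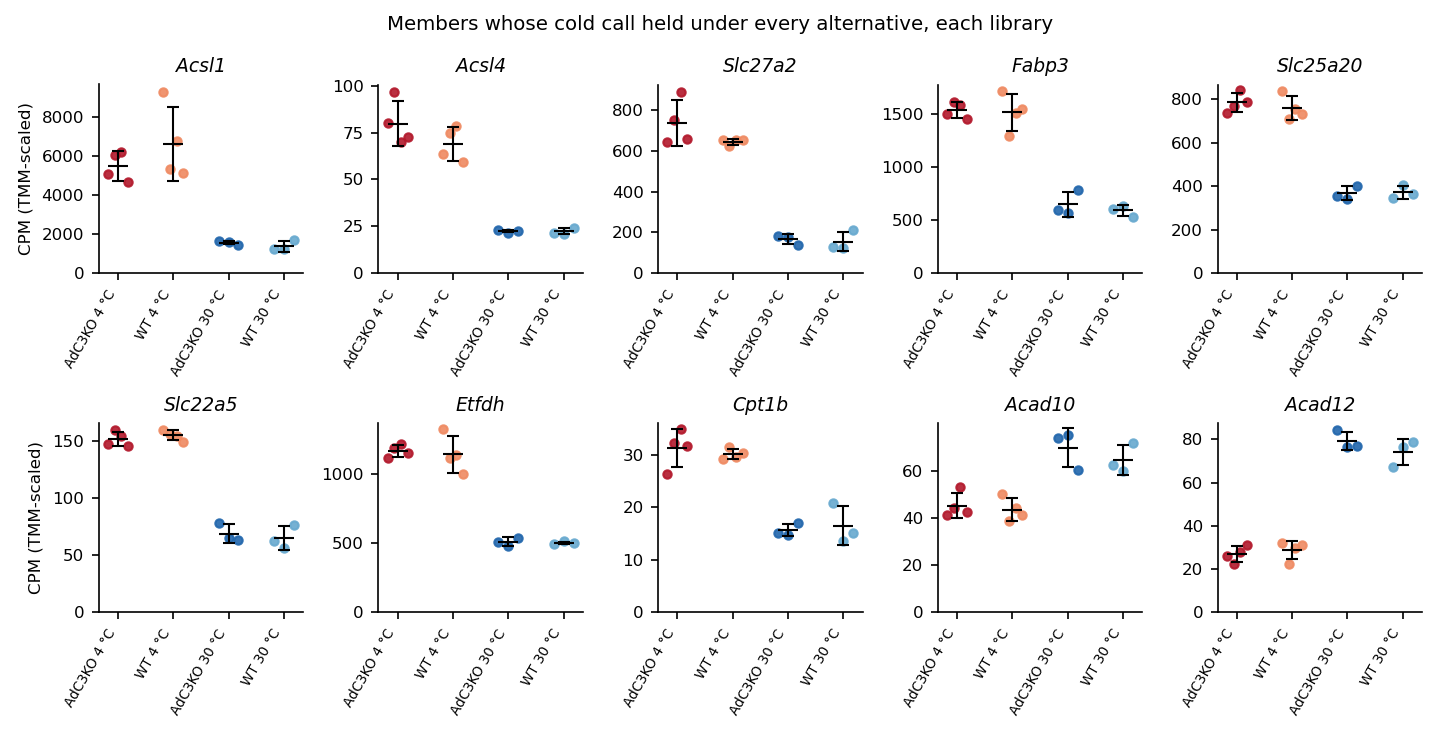
Scaled CPM (vertical axis, linear from 0) in each library for the 10 members whose cold call held in both genotypes under every alternative; points are libraries, the short line is the group mean and the bar is ± 1 SD, with 4 libraries a group at 4 °C and 3 at 30 °C. The temperatures are apart for all 10 genes, while AdC3KO and WT points overlap at each temperature.

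In the carnitine system the carriers rose and the inner-membrane transferase did not. Slc25a20 (chromosome 9, 108662088 to 108684641, plus strand), the carnitine-acylcarnitine carrier, had 738, 769.7, 842 and 789 CPM in AdC3KO at 4 °C, against 356, 343 and 403 CPM in AdC3KO at 30 °C. In WT it reached 837, 709, 757 and 731 CPM at 4 °C, against 347, 406 and 365 CPM at 30 °C. There was no overlap between temperatures, and the log2 fold change was 1.10 in AdC3KO (SE 0.10, adjusted p = 7.64e-08) and 1.03 in WT (SE 0.10, adjusted p = 1.67e-07).

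Slc22a5 (chromosome 11, 53864542 to 53891660, minus strand) encodes OCTN2, the sodium-dependent carnitine importer of the cell surface. It had 147, 159, 154 and 145 CPM in AdC3KO at 4 °C, against 77.9, 64.4 and 63.0 CPM in AdC3KO at 30 °C. WT showed 159.6, 156, 154 and 149 CPM at 4 °C, against 62.6, 55.7 and 76.5 CPM at 30 °C. Cold libraries of both genotypes were nearly level with each other and above every warm library, with log2 fold changes of 1.14 in AdC3KO (SE 0.10, adjusted p = 1.07e-07) and 1.25 in WT (SE 0.11, adjusted p = 4.45e-08).

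Cpt1b, the muscle and brown fat form of the outer-membrane transferase, had 26.3, 32.2, 34.9 and 31.7 CPM in AdC3KO at 4 °C, against 15.2, 14.8 and 17.0 CPM in AdC3KO at 30 °C. WT had 29.2, 31.5, 29.7 and 30.3 CPM at 4 °C, against 20.8, 13.6 and 15.2 CPM at 30 °C. The temperatures did not overlap. It rose by 0.99 in AdC3KO (SE 0.13, adjusted p = 8.12e-06) and 0.87 in WT (SE 0.13, adjusted p = 3.41e-05), and by 0.82 and 0.79 without the 5 libraries with muscle transcripts. Cpt1a, the liver form, changed by −0.43 in AdC3KO (called) and −0.22 in WT (called only with upper-quartile factors, −0.46), and the AdC3KO call was lost without AdC3KO 30 °C number 1 (−0.25), without number 2 (−0.42) and without the libraries with muscle transcripts (−0.04). Cpt2 changed by −0.18 in AdC3KO and −0.15 in WT and was not called, but it was called lower with upper-quartile factors (−0.41 and −0.40), in AdC3KO with no low-count filter (−0.27) and, in WT, without WT 4 °C number 1 (−0.29).

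The level of Cpt1b is understated by an unknown amount. Of 2895 bases in its principal transcript, 2744 are shared with the read-through gene Gm44502 on the same strand, which had 0 counts in all 14 libraries, and reads that fall on 2 genes were set aside as ambiguous by the counter. The change between temperatures uses the same countable bases in each library. The Cpt1b share of Cpt1 transcripts per length was 80.6 ± 2.14% in AdC3KO and 77.4 ± 2.01% in WT at 4 °C (SD, n = 4 each), and 61.3 ± 6.87% in AdC3KO and 61.3 ± 4.55% in WT at 30 °C (SD, n = 3 each). Divided by the 151 bases of the principal transcript not shared, a choice added after the data were seen, it was 98.8% and 98.5% at 4 °C and 96.8% and 96.8% at 30 °C. Over all exons the gene has 3372 bases, 2744 of them shared. Its counts can thus fall on more than those 151 bases, and this share may be overstated.

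Ratios within libraries restate this contrast between carriers and transferase from the same counts, without the scaling of libraries. The pairs were picked after their values had been seen, so the ratios are no further support. Slc25a20 per length was 4.83 ± 0.227 times Cpt2 in AdC3KO and 4.48 ± 0.487 times in WT at 4 °C (SD, n = 4 each), beside 1.99 ± 0.130 and 1.95 ± 0.0224 times at 30 °C (SD, n = 3 each). Slc22a5 was 0.544 ± 0.0513 times Cpt2 in AdC3KO and 0.535 ± 0.0810 times in WT at 4 °C, beside 0.216 ± 0.0268 and 0.199 ± 0.0392 times at 30 °C. Neither ratio overlapped between temperatures.

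The 8 acyl-CoA dehydrogenases, which carry out the first oxidation, moved both ways. In each genotype the very long-chain and long-chain enzymes were called higher, 3 less studied members lower, and the remaining 3 were not called. Acadvl, the very long-chain enzyme bound to the inner membrane, averaged 1251 ± 111 CPM in AdC3KO at 4 °C (SD, n = 4), against 890.4 ± 30.3 CPM at 30 °C (SD, n = 3), and 1178 ± 116 CPM in WT at 4 °C (SD, n = 4), against 864 ± 24.4 CPM at 30 °C (SD, n = 3). It rose by 0.49 in AdC3KO (SE 0.10, adjusted p = 4.99e-04) and 0.45 in WT (SE 0.10, adjusted p = 0.00110), the WT call being lost with upper-quartile factors (0.21) and the AdC3KO call without the libraries with muscle transcripts (0.42). In the annotation, 976 of its 2168 bases lie opposite Dvl2, and the sources used here do not state the strand setting of the counting.

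Acadl, the long-chain enzyme, had 2485, 2528, 3164 and 2613 CPM in AdC3KO at 4 °C, against 2073, 2039.8 and 2444 CPM in AdC3KO at 30 °C. WT libraries had 3155, 2291, 2694 and 2453 CPM at 4 °C, against 2103, 2287 and 2037 CPM at 30 °C. The groups were only just apart, with log2 fold changes of 0.30 in AdC3KO (SE 0.13, adjusted p = 0.0497) and 0.31 in WT (SE 0.13, adjusted p = 0.0494). These calls were lost with upper-quartile factors (0.07 in AdC3KO and 0.06 in WT) and without libraries that carry muscle transcripts (0.05 and 0.33). They were lost too under the replicate block (0.33 and 0.32, adjusted p = 0.0547 and 0.0603), with no low-count filter (0.21 and 0.21), with a filter of 1 CPM in 3 libraries (0.30 and 0.28) and when only the 2 groups were fitted (0.29 and 0.30). The AdC3KO call was also lost without AdC3KO 30 °C number 1 (0.27) or 2 (0.26) or AdC3KO 4 °C number 3 (0.24) or 4 (0.33). The WT call was lost without WT 30 °C number 1 (0.29), 2 (0.36) or 3 (0.27) or WT 4 °C number 1 (0.20) or 3 (0.30). Acadm, the medium-chain enzyme, changed by 0.14 in AdC3KO and 0.06 in WT, and Acads, the short-chain enzyme, by 0.15 and 0.04, none of them called.

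Acad12 (chromosome 5, 121596775 to 121618938, minus strand) and its neighbour and paralogue Acad10, less studied members of the family, fell. Acad12 had 26.2, 22.3, 27.9 and 31.0 CPM in AdC3KO at 4 °C, against 84.2, 76.6 and 76.8 CPM in AdC3KO at 30 °C. WT had 32.1, 22.5, 29.6 and 31.0 CPM at 4 °C, against 67.1, 76.2 and 78.6 CPM at 30 °C. Every warm library was above every cold one, with log2 fold changes of −1.56 in AdC3KO (SE 0.12, adjusted p = 1.91e-08) and −1.36 in WT (SE 0.12, adjusted p = 9.04e-08). Acad10 averaged 45.1 ± 5.35 CPM in AdC3KO at 4 °C (SD, n = 4), against 69.7 ± 8.22 CPM at 30 °C (SD, n = 3), and 43.5 ± 4.84 CPM in WT at 4 °C (SD, n = 4), against 64.5 ± 6.37 CPM at 30 °C (SD, n = 3).

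The log2 fold change of Acad10 was −0.63 in AdC3KO (SE 0.11, adjusted p = 1.63e-04) and −0.57 in WT (SE 0.11, adjusted p = 4.33e-04). How the counting treated reads that fit both Acad10 and Acad12 is not known. Acad9, an assembly factor of respiratory complex I as well as a dehydrogenase, changed by −0.32 in AdC3KO and −0.26 in WT, both called. The WT call was lost under the replicate block (−0.24) and without WT 30 °C number 2 (−0.26) or 3 (−0.22) or WT 4 °C number 2 (−0.22) or 4 (−0.21), and both calls were lost without the libraries with muscle transcripts (−0.35 in AdC3KO and −0.18 in WT). Acad11, which also handles 4-hydroxy acids, changed by −0.15 in AdC3KO and 0.13 in WT and was not called.

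In the later steps the trifunctional protein stood apart from the soluble matrix enzymes. Hadha, its alpha subunit with hydratase and long-chain 3-hydroxyacyl-CoA dehydrogenase activity, averaged 2339 ± 144 CPM in AdC3KO at 4 °C (SD, n = 4), against 1544 ± 125 CPM at 30 °C (SD, n = 3). WT averaged 2287 ± 333 CPM at 4 °C (SD, n = 4), against 1564 ± 89.6 CPM at 30 °C (SD, n = 3). It rose by 0.60 in AdC3KO (SE 0.12, adjusted p = 3.50e-04) and 0.55 in WT (SE 0.12, adjusted p = 7.82e-04), the AdC3KO call being lost without the libraries with muscle transcripts (0.49).

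Hadhb, the thiolase subunit across the 85-base stretch between GENCODE starts, had 3006, 3433, 3511 and 3109 CPM in AdC3KO at 4 °C, against 2559, 2369 and 2547 CPM in AdC3KO at 30 °C. WT had 3686, 2679, 3060.4 and 2823 CPM at 4 °C, against 2246, 2587 and 2386 CPM at 30 °C. Cold and warm libraries did not overlap, with log2 fold changes of 0.39 in AdC3KO (SE 0.12, adjusted p = 0.00943) and 0.35 in WT (SE 0.12, adjusted p = 0.0187). Upper-quartile factors ended both calls (0.16 and 0.10), leaving out the libraries with muscle transcripts ended that in AdC3KO (0.32), and leaving out WT 4 °C number 1 (0.23) or WT 30 °C number 1 (0.30), dropping the low-count filter (0.25) or fitting only the 2 groups (0.34) ended that in WT. Per length Hadhb was 2.74 ± 0.109 times Hadha in AdC3KO and 2.63 ± 0.131 times in WT at 4 °C (SD, n = 4 each), beside 3.17 ± 0.132 and 3.02 ± 0.242 times at 30 °C (SD, n = 3 each). The ratio was thus 0.863 times as high in cold in AdC3KO, without overlap, and 0.870 times in WT, with overlap.

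Acaa2, the medium-chain 3-ketoacyl-CoA thiolase of the matrix, had 1953, 2139, 2259 and 2201 CPM in AdC3KO at 4 °C, against 2155, 2145 and 2344 CPM in AdC3KO at 30 °C. WT had 2389, 1762, 2052 and 1858 CPM at 4 °C, against 2129, 2402 and 2198 CPM at 30 °C. These ranges overlapped, and the log2 fold changes of −0.05 and −0.15 were not called. Hadh, the short-chain hydroxyacyl-CoA dehydrogenase, changed by −0.24 and −0.26, and Echs1, the short-chain hydratase, by −0.06 and −0.11, in AdC3KO and WT, without a call.

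With upper-quartile factors Hadh was called lower (−0.47 in AdC3KO and −0.50 in WT), and so were Echs1 (−0.30 and −0.35) and Acaa2 (−0.28 and −0.40). Hadh was also called lower with no low-count filter (−0.33 and −0.35) and, in AdC3KO, when only the 2 groups were fitted (−0.25). Without WT 4 °C number 1, Hadh (−0.39) and Acaa2 (−0.26) were called lower in WT. The ratio of a trifunctional subunit to a matrix enzyme is free of that choice. Hadha per length was 0.999 ± 0.0537 times Hadh in AdC3KO and 0.991 ± 0.0741 times in WT at 4 °C (SD, n = 4 each), beside 0.557 ± 0.0415 and 0.566 ± 0.0526 times at 30 °C (SD, n = 3 each). Hadhb was 1.13 ± 0.0606 times Acaa2 in AdC3KO and 1.12 ± 0.0156 times in WT at 4 °C, beside 0.833 ± 0.0398 and 0.794 ± 0.0117 times at 30 °C. Acadvl was 2.97 ± 0.229 times Acads in AdC3KO and 3.04 ± 0.246 times in WT at 4 °C, beside 2.33 ± 0.0141 and 2.30 ± 0.0990 times at 30 °C. None of these ratios overlapped between temperatures. The pairs were picked after their values had been seen, so this restates the changes above and is no further support.

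Of the 3 auxiliary enzymes for unsaturated fatty acids, 1 was called higher in each genotype. Decr1, the 2,4-dienoyl-CoA reductase, averaged 739.9 ± 62.2 CPM in AdC3KO at 4 °C (SD, n = 4), against 557 ± 28.2 CPM at 30 °C (SD, n = 3), and 734 ± 130.4 CPM in WT at 4 °C (SD, n = 4), against 569.6 ± 51.9 CPM at 30 °C (SD, n = 3). It rose by 0.41 in AdC3KO (SE 0.12, adjusted p = 0.00886) and 0.37 in WT (SE 0.12, adjusted p = 0.0175), and upper-quartile factors ended both calls (0.18 and 0.12). Leaving out WT 4 °C number 1 (0.22) or WT 30 °C number 1 (0.30) ended the WT call, as did fitting only the 2 groups (0.36), and leaving out the libraries with muscle transcripts ended the AdC3KO call (0.27). The enoyl-CoA isomerases Eci1 and Eci2 changed by −0.15 and 0.04 in AdC3KO and by −0.22 and −0.01 in WT, with no call. Eci1 was called lower with upper-quartile factors (−0.38 in AdC3KO and −0.46 in WT) and, in WT, with no low-count filter (−0.31) and without WT 4 °C number 1 (−0.34). Eci2 was called lower in WT with upper-quartile factors (−0.25). Reads of Eci2 may be shared with its paralogue Eci3.

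At electron transfer, the dehydrogenase rose and the flavoprotein changed little. Etfdh (chromosome 3, 79603788 to 79629500, minus strand), which passes electrons to ubiquinone, had 1111, 1182, 1214 and 1147 CPM in AdC3KO at 4 °C, against 509, 474 and 538 CPM in AdC3KO at 30 °C. In WT its level was 1319, 1109, 1136 and 998 CPM at 4 °C, against 492, 510.5 and 496 CPM at 30 °C. Cold libraries held at least 998 CPM and warm ones at most 538 CPM. The log2 fold change was 1.20 in AdC3KO (SE 0.10, adjusted p = 4.00e-08) and 1.19 in WT (SE 0.10, adjusted p = 4.56e-08).

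Etfa, the alpha subunit, had 1588, 1679.8, 1828 and 1599.9 CPM in AdC3KO at 4 °C, against 1351, 1388 and 1476 CPM in AdC3KO at 30 °C. WT libraries gave 1789, 1382, 1602 and 1555 CPM at 4 °C, against 1311, 1512 and 1501 CPM at 30 °C. The AdC3KO groups were apart and the WT groups overlapped. The log2 fold change was 0.25 in AdC3KO (SE 0.11, adjusted p = 0.0462), and 0.13 in WT (SE 0.11, adjusted p = 0.284). The AdC3KO call was lost with upper-quartile factors (0.02), under the replicate block (0.27, adjusted p = 0.0655), with no low-count filter (0.16), without the 5 muscle-positive libraries (0.13), and without AdC3KO 30 °C number 1 (0.23), 2 (0.25) or 3 (0.29) or AdC3KO 4 °C number 2 (0.27), 3 (0.23) or 4 (0.29). Etfb changed by −0.15 in AdC3KO (SE 0.35) and −0.27 in WT (SE 0.35), not called, and 617 of its 893 bases are shared with Gm45233 on the same strand, which had 1 count in all libraries.

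Within libraries Etfdh was 0.408 ± 0.0132 times Etfa per length in AdC3KO and 0.423 ± 0.0390 times in WT at 4 °C (SD, n = 4 each), beside 0.211 ± 0.0106 and 0.204 ± 0.0140 times at 30 °C (SD, n = 3 each). The ratio was 1.93 times as high at 4 °C as at 30 °C in AdC3KO and 2.08 times in WT, without overlap. Etfa remained the more abundant transcript per length in every library.

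**Figure D4:**
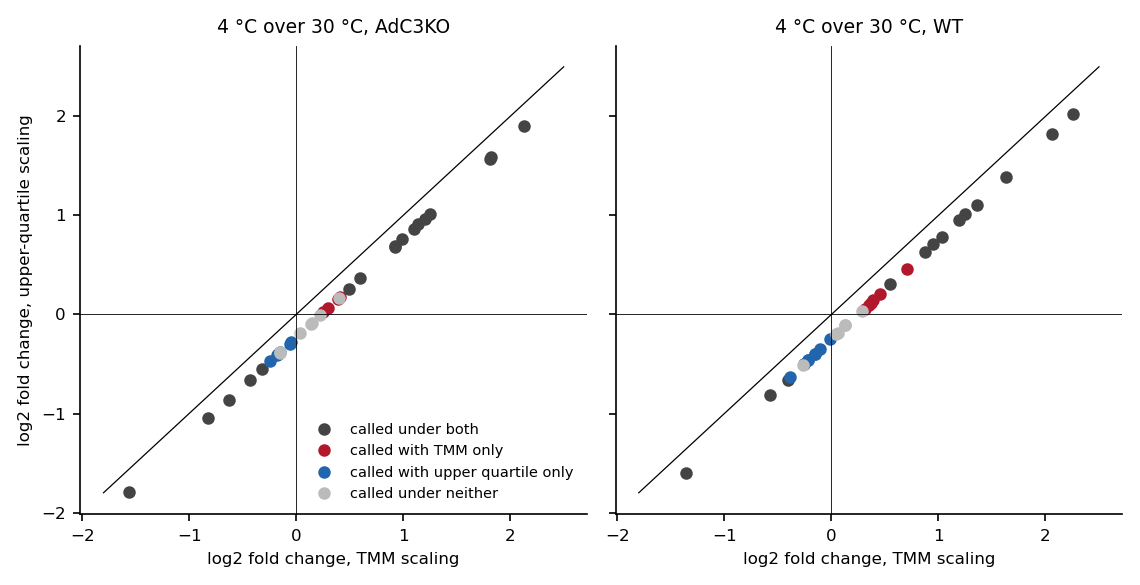
Log2 fold change of 4 °C over 30 °C with upper-quartile scaling (vertical axis) against that with TMM scaling (horizontal axis) for the 34 tested members, in AdC3KO (left) and WT (right); the diagonal marks equal values and colours show under which scaling a member was called. All points sit below the diagonal by about the same step, so that some members with smaller changes lose or gain a call while the large changes stay.

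Per length, the members spanned a wide range, and Fabp4 led in all 4 groups. Its group mean was 11338 CPM per kb in AdC3KO and 11749 in WT at 4 °C, and 6012 in AdC3KO and 6077 in WT at 30 °C. Cpt1a was the lowest tested member, at 2.57 CPM per kb in AdC3KO and 3.06 in WT at 4 °C, and 3.45 and 3.56 at 30 °C. The order after Fabp4 differed by temperature. Fabp3 came next at 4 °C, at 1865 CPM per kb in AdC3KO and 1841 in WT, and Acaa2 at 30 °C, at 1461 in AdC3KO and 1479.6 in WT, where Fabp3 was at 786 and 718. Hadhb, Acadl and Etfa also ranked among the first 7 members in each group. Acsl1 was at 1411 CPM per kb in AdC3KO and 1700.5 in WT at 4 °C, beside 403 and 354 at 30 °C.

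**Figure D5:**
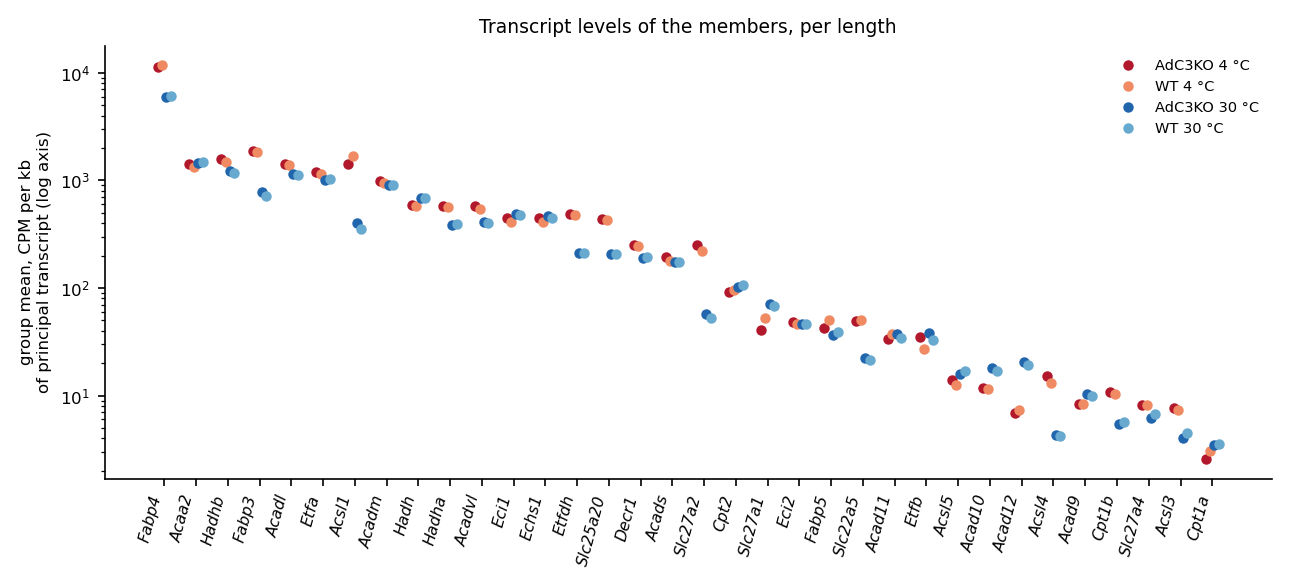
Group mean level per kb of principal transcript (vertical axis, log scale) for the 34 tested members, ordered by their mean over all libraries; colours mark the 4 groups, and levels of Cpt1b and Etfb are understated because most of their bases are shared with another gene. Fabp4 leads at 11338 CPM per kb in AdC3KO at 4 °C, and the 4 °C and 30 °C points separate clearly for Acsl1, Fabp3, Slc27a2, Slc25a20, Etfdh and Acad12.

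Summed over the 35 members, scaled counts made up 3.97 ± 0.389% of the library in AdC3KO and 4.03 ± 0.716% in WT at 4 °C (SD, n = 4 each), and 2.58 ± 0.155% in AdC3KO and 2.54 ± 0.143% in WT at 30 °C (SD, n = 3 each). Fabp4 alone accounted for 1.02 ± 0.160% and 1.05 ± 0.251% at 4 °C, and 0.539 ± 0.0905% and 0.544 ± 0.0495% at 30 °C. Without Fabp4 and Acsl1 the remaining members summed to 2.41 ± 0.170% in AdC3KO and 2.31 ± 0.295% in WT at 4 °C, and 1.88 ± 0.0882% and 1.86 ± 0.0962% at 30 °C. As a share of gene counts with no scaling, all members came to 3.49 ± 0.156% in AdC3KO and 3.63 ± 0.406% in WT at 4 °C, and 2.97 ± 0.101% and 2.95 ± 0.0388% at 30 °C. The temperatures did not overlap on either scale.

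Genes around the pathway moved in mixed directions. For the counts of each list below, the shares of all tested genes were 31.0% higher and 32.1% lower in AdC3KO, and 30.6% and 30.8% in WT. Of 28 tested genes for related acyl-CoA enzymes and carriers, 4 were higher and 11 lower at 4 °C in AdC3KO, with a median log2 fold change of −0.24, and 5 higher and 12 lower in WT, with a median of −0.31. Acot2, a mitochondrial thioesterase that releases free fatty acid from acyl-CoA, rose by 3.76 in AdC3KO (SE 0.15) and 3.97 in WT (SE 0.15). Its near-identical cytosolic neighbour Acot1 had values of 4.10 (SE 0.31) and 4.74 (SE 0.33), uncertain because reads may be shared between them. Crot, the peroxisomal carnitine octanoyltransferase, fell by 2.00 in AdC3KO (SE 0.17) and 1.77 in WT (SE 0.17).

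Of 17 regulators of fatty acid oxidation, 9 were higher and 6 lower in AdC3KO (median 0.38), and 9 higher and 4 lower in WT (median 0.33). Ppargc1a, the coactivator PGC-1alpha, averaged 1109 ± 301 CPM in AdC3KO at 4 °C, against 47.1 ± 6.33 CPM at 30 °C, and 875 ± 251 CPM in WT at 4 °C, against 38.6 ± 4.45 CPM at 30 °C (SD, n = 4 at 4 °C and n = 3 at 30 °C). The nuclear receptor gene Esrrb rose by 1.92 and 2.07 from a low level (mean over all libraries 2.49 CPM). Its relatives in the list went both ways. Esrra (mean 200.2 CPM) rose by 0.49 in AdC3KO and 0.36 in WT, and Esrrg (mean 19.3 CPM) was lower, at −1.38 and −1.35. Acaca, the carboxylase whose product malonyl-CoA inhibits carnitine palmitoyltransferase 1, was lower, with log2 fold changes of −1.70 in AdC3KO (SE 0.35) and −1.68 in WT (SE 0.35). The related carboxylase gene Acacb had a higher mean over all libraries, 941 CPM against 536 CPM for Acaca. It changed by −0.06 in AdC3KO and 0.18 in WT and was not called.

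Smaller lists were mixed as well. Of 8 ketone body genes 2 were higher and 2 lower in AdC3KO, and 3 higher and 2 lower in WT. Slc16a1, the monocarboxylate carrier MCT1, rose by 1.14 in AdC3KO and 1.34 in WT, and Aacs, acetoacetyl-CoA synthetase, was lower, at −1.51 and −1.45. Bdh1, which interconverts the main ketone bodies, was called higher in both but lay near the limit of counting, at 1.34 ± 0.337 CPM in AdC3KO at 4 °C, against 0.0492 ± 0.0852 CPM at 30 °C, and 0.335 ± 0.187 CPM in WT at 4 °C, against 0.0680 ± 0.0630 CPM at 30 °C (SD, n = 4 at 4 °C and n = 3 at 30 °C). Of 9 genes for flavin supply and upkeep of the flavoprotein, 2 were higher and 3 lower in AdC3KO, and 3 and 3 in WT. Coq9, of ubiquinone synthesis, was lower, at −0.81 and −0.80, the riboflavin carrier Slc52a3 rose by 0.77 and 1.56, and the mitochondrial flavin carrier Slc25a32 changed by 0.36 (not called) and 0.61. Neither of the 2 tested genes of carnitine synthesis, Aldh9a1 and Slc16a9, was called in either genotype. In genotype comparisons and the interaction, 0 genes of these 5 lists were called by edgeR. At an unadjusted p below 0.05, the related enzymes had 1 gene at 4 °C, the ketone body genes 1 at 4 °C and the flavin genes 1 at 30 °C. Of all 15949 tested genes, 765 passed at 4 °C and 212 at 30 °C.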

How the data were processed

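Per the series' design text, the authors used FastQC and Trimmomatic on the reads, STAR for alignment to GRCm38/mm10 and HTSeq for the deposited counts per gene. The sources used here give no versions, annotation release or strand setting. All values in the deposited table were whole-number counts without normalisation. Lines that name no gene were left out of library sizes: 5.95% to 8.19% of reads per library lay outside genes and 5.53% to 6.03% fell on more than 1 gene.

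Symbols and lengths came from GENCODE M21 (GRCm38). Counts were tested with edgeR 4.0.16 in R 4.3.3: filterByExpr by group (minimum count 10), TMM scaling, a robust quasi-likelihood fit of the 4 group means over all 14 libraries, and Benjamini-Hochberg adjustment over 15949 genes at 0.05. SE is the log2 fold change divided by the square root of F. CPM per kb uses the principal transcript. The edgeR fit was tested on simulated counts with known fold changes. The common coefficient of variation was 0.200. Replicate libraries differed by more than sampling noise (chi-square per degree of freedom 16.9 to 83.5).

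Values are given per library for members called in cold with a log2 change of at least 1 and for the 6 members with the most counts per kb. Cpt1b and, in a plot, Acad10 were added after values were seen. Outside the members, each list gives up to 3 called genes with the largest change in WT. Esrra, Esrrg and Acacb were added after values were seen. The members, lists and rules were chosen with earlier results of these data known. Libraries with a mean log2 CPM above 0 over the muscle markers were left out in one alternative. Others were RLE and upper-quartile factors, other filters, DESeq2 1.42.0, fits of the compared groups only, a replicate block and each library left out. Libraries with the same number did not deviate together (correlations −0.34 to 0.05), so the numbers were not taken as pairs.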

Additional observations from a re-analysis of the deposited data

Results flagged for a closer look

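Among 76 groups of 4 libraries, 4 had a library far from the others by Dixon's test at its 95% critical value, and chance flags about 1 in 20 groups. Acadm had 2257 CPM in AdC3KO 4 °C number 3, where the nearest library had 1969. Eci2 had 91.0 CPM in the same library, with 81.2 next, and 97.6 CPM in WT 4 °C number 1, with 77.1 next. Slc27a2 had 624 CPM in WT 4 °C number 2, below the other 3 at 652 to 654. AdC3KO 4 °C number 3 also had the highest summed level of muscle markers, 572 CPM, and WT 4 °C number 2 the highest of its group, 99.9 CPM. Their part in these values was not tested.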

How the results depend on the processing

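Of 2754 values recomputed for members under the alternatives, 2657 stayed on their side of the threshold, 68 lost a call, 29 gained one and 0 turned direction past the threshold. Values that were not called could change sign. The cold log2 fold change of Acad11 in WT, 0.13, ranged from −0.11 to 0.37. Leaving out the 5 libraries with muscle transcripts took the AdC3KO cold count to 10 members (8 higher and 2 lower), with AdC3KO at 30 °C reduced to 1 library that is assumed to vary like the others, and the whole table's count to 6589 genes. The same setting took the genotype counts of all genes to 2 at 30 °C and 3 at 4 °C. At 4 °C DESeq2 called 21 genes and a fit of the compared groups alone 5, where edgeR called 8. Leaving out each library in turn gave 18 to 21 members for cold in AdC3KO, 16 to 22 in WT and 0 in the other comparisons. The whole table then gave 9225 to 9747 genes for cold in AdC3KO and 8957 to 9727 in WT. Between genotypes at 30 °C it gave 4 to 6 genes, where all libraries gave 7 (4 without WT 30 °C number 1 or 3). The replicate block gave 19 members in AdC3KO, 18 in WT and 0 elsewhere. The Cpt1b share of Cpt1 moved by 19.3 percentage points in cold in AdC3KO and 16.0 in WT per length, by 2.01 and 1.71 per base not shared, and by 11.0 in AdC3KO without the libraries with muscle transcripts. Changes in cold of about the size of the shift between scalings depend on it. The tested member with the fewest counts, Cpt1a, had 4610 counts over all libraries, and no thinning of reads was run.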
